A study of Mus musculus with 7 samples.

Results

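Integrins are the receptors through which cells of the vessel wall hold on to the matrix, and 10 of their subunit genes are described here: Itgb3, Itgav, Itgb1, Itgb5, Itga1, Itga2, Itga4, Itga5, Itga9 and Itga11. They were taken by name from a table of 21878 genes, and all 10 were found and passed the filter on low counts. The names were put together with the counts and FPKM values of these libraries in view, so the genes count as selected on their values in both groups, and their differences are given as a description. Where tests run over all genes called a member, the count is printed as a record only, since the choice of genes used the same values. The tissue was abdominal aorta, taken for RNA sequencing from C57BL/6 males with a stated age of 8 weeks and up to 28 days of angiotensin II (Ang II). Ang II is a pressor peptide that brings on aortic aneurysm in hyperlipidaemic mice. The ApoE-/-Nur77-/- genotype, called DKO in the sample titles, has 4 libraries (DKO 1 to DKO 4), and ApoE-/- has 3 (ApoE 1 to ApoE 3). Both genotypes lack, by their labels, the apolipoprotein gene Apoe, and the DKO genotype also lacks the nuclear receptor Nur77, the product of Nr4a1. All 7 libraries come from Ang II-exposed mice, so no value stands for an untreated aorta. The labels do not say whether each library is 1 mouse or a pool, nor on which day each aorta was taken. The question is which aortic transcripts differ, under Ang II, when Nur77 is missing on top of ApoE.

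An integrin is a heterodimer of 1 alpha and 1 beta chain, and the pairing sets which ligand is bound. Alpha v pairs with beta 3, beta 5 and beta 1 and binds matrix proteins that carry the RGD motif, such as vitronectin, fibronectin and osteopontin. Beta 1 is the shared partner of alpha 1, alpha 2 and alpha 11, which bind collagen, of alpha 5, the fibronectin receptor, and of alpha 4 and alpha 9, which bind VCAM-1, tenascin-C and related ligands. In arteries, alpha v beta 3 has been studied mainly in smooth muscle cell migration after injury and in endothelial cells and macrophages, and beta 3 pairs with alpha IIb in platelets.

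Library totals ran from 19295287 to 21727192 counts, and levels below are in CPM, a depth-normalised count that used TMM factors. Both targeted genes were read in libraries that lack them by label. Nr4a1 was still read, at 46.2 to 92.7 CPM in the libraries labelled DKO against 56.4 to 193 CPM in those labelled ApoE-/-. These ranges overlapped, and the mean was lower in the libraries labelled DKO (71.5 against 120 CPM). Apoe was read at 18.3 to 34.7 CPM in the libraries labelled DKO and at 184 to 250.3 CPM in those labelled ApoE-/-, which should lack it as well. Its log2 ratio, DKO over ApoE, was -2.95, with the smallest p of all genes tested (edgeR adjusted p = 0.0227). The groups thus differ in Apoe reads as well as in the Nur77 label. Which stretch of either gene is deleted is not stated in the labels, so reads from the rest of it may be counted. Directions below are by label only. Contractile smooth muscle genes were abundant in all 7 libraries, with a summed level of 10279 to 36847 CPM over 14 genes in those labelled DKO and 19324 to 30143 CPM in those labelled ApoE-/-. Atrial muscle genes stood out in ApoE 2 and ApoE 3, with a mean over 8 genes of 5.42 and 7.07 on the log2 CPM scale, while the remaining 5 libraries had 0.67 to 2.45. Nothing says that the libraries come from separate animals, so p-values measure only the spread between these libraries.

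Per unit length, the beta 1 subunit was the most abundant of the 10 and the collagen receptor subunit alpha 2 the least. On the FPKM scale, which divides by gene length and so allows genes to be set beside each other, Itgb1 averaged 328 ± 45.6 FPKM (SD, n = 7) and Itgb5 141 ± 17.1 FPKM. Itga5 followed at 76.3 ± 14.03 FPKM and Itga9 at 40.8 ± 13.9 FPKM. Itgav and Itgb3 were close to each other, at 19.1 ± 5.52 and 17.6 ± 7.31 FPKM. Itga1 was at 12.2 ± 1.62, Itga11 at 8.94 ± 5.70, Itga4 at 3.39 ± 1.33 and Itga2 at 1.57 ± 0.91 FPKM. The ranges of Itgb1 and Itgb5 over the 7 libraries did not overlap, nor did those of Itgb5 and Itga5. From Itga5 down, each gene's range overlapped that of the next. The order of neighbours within a library still held in 7 of 7 libraries for Itga5 over Itga9, Itga11 over Itga4 and Itga4 over Itga2. It held in 4 of 7 for Itgav over Itgb3, these being the 3 libraries labelled ApoE-/- and DKO 1.

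**Figure D1:**
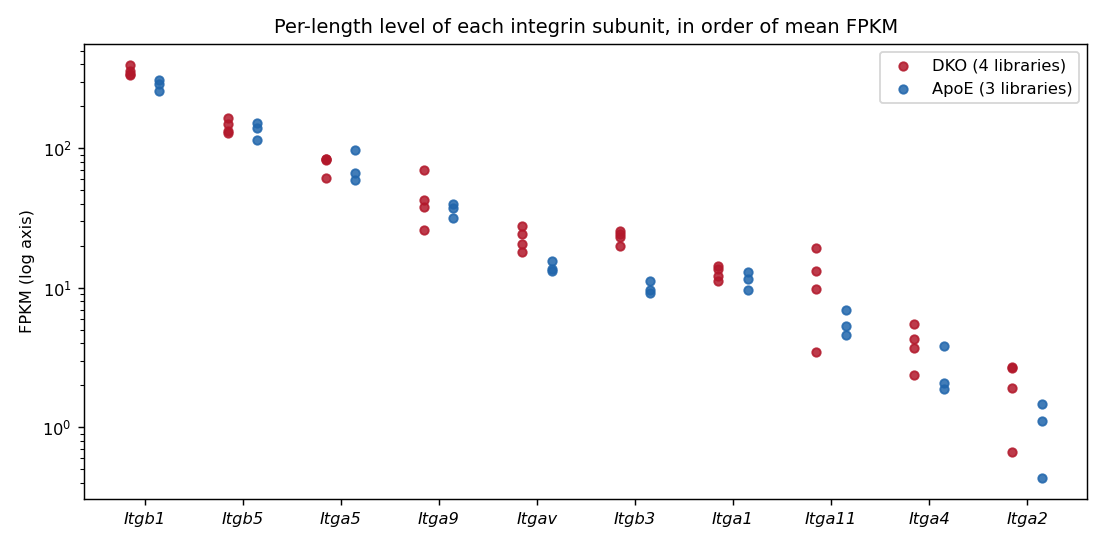
FPKM of the 10 integrin subunits on a log axis, in order of their mean over 7 libraries, with the 4 libraries labelled DKO left of the 3 labelled ApoE-/-. Itgb1 and Itgb5 lie above all other subunits in every library, and on this scale the groups separate for Itgb3, Itgav and Itgb1.

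Itgb3, the beta 3 chain of the vitronectin receptor (chromosome 11, 104608000 to 104670476, GRCm38.p6), was the member with the largest fold and log2 ratio in the edgeR fit reported. It was read at 132, 164, 158 and 182 CPM in DKO 1 to DKO 4, against 81.8, 61.8 and 72.3 CPM in ApoE 1 to ApoE 3. Every library labelled DKO lay above every library labelled ApoE-/-. DKO 1 and ApoE 1 were the libraries nearest to each other. The mean was 159 ± 20.7 CPM (SD, n = 4) in the libraries labelled DKO and 72.0 ± 10.02 CPM (SD, n = 3) in those labelled ApoE-/-, a fold of 2.21. The fitted log2 ratio, DKO over ApoE, was 1.14 ± 0.14 (standard error of edgeR's fit, here and for every log2 ratio below), and 1.27% of all genes tested had one at least as large. It ranged from 1.05 without ApoE 2 to 1.25 without ApoE 1 when single libraries were left out, and was 0.96 with only ApoE 1 in its group.

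Itgav, the alpha v chain that Itgb3 pairs with (chromosome 2, 83722303 to 83806917), was the other member whose groups did not overlap. Its levels were 199, 171, 147 and 134 CPM in DKO 1 to DKO 4, against 104, 109 and 98.5 CPM in ApoE 1 to ApoE 3. The libraries labelled ApoE-/- lay close together, and DKO 4 was the nearest to them. The mean was 163 ± 28.5 CPM (SD, n = 4) in the libraries labelled DKO and 104 ± 5.48 CPM (SD, n = 3) in those labelled ApoE-/-, with a log2 ratio of 0.64 ± 0.14. A non-coding transcript of the opposite strand, Gm13684, shares 634 of the 10744 annotated exon bases of Itgav, and whether counting used strand is not given in the sources used here. No exon of another gene overlaps Itgb3 in the annotation (GENCODE M21).

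Itgb5, the beta 5 chain, which also pairs with alpha v as a vitronectin receptor, overlapped between the groups. It was read at 479.6, 520.2, 574 and 677 CPM in DKO 1 to DKO 4, against 629, 454 and 621 CPM in ApoE 1 to ApoE 3. ApoE 2 was the lowest of the 7 and DKO 4 the highest. The mean was 563 ± 85.5 CPM (SD) in the 4 libraries labelled DKO and 568 ± 98.9 CPM (SD) in the 3 labelled ApoE-/-. The log2 ratio was -0.01 ± 0.17, and was above 0 under 9 of 16 alternative settings.

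The beta 3 to beta 5 balance of the alpha v receptors, on the FPKM scale, separated the groups while the beta 3 to alpha v balance did not. Itgb3 was at 0.16, 0.18, 0.15 and 0.15 times the FPKM of Itgb5 in DKO 1 to DKO 4, against 0.073, 0.080 and 0.069 times in ApoE 1 to ApoE 3. Relative to Itgav it was at 0.72, 1.00, 1.12 and 1.40 in DKO 1 to DKO 4, against 0.82, 0.58 and 0.72 in ApoE 1 to ApoE 3, so DKO 1 lay among the libraries labelled ApoE-/-. Itgb3 made up 3.31 ± 0.17% (SD, n = 4) of the summed FPKM of the 10 members in the libraries labelled DKO and 1.72 ± 0.04% (SD, n = 3) in those labelled ApoE-/-. These ratios are of RNA and say nothing of how many dimers the cells carried.

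**Figure D2:**
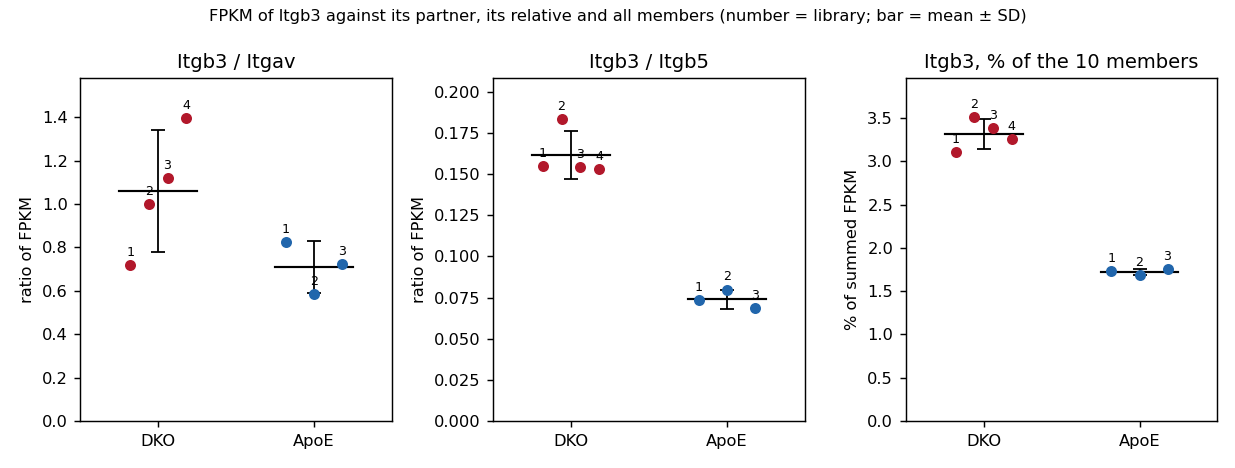
FPKM of Itgb3 over that of its partner Itgav, over that of Itgb5, and as a percentage of the summed FPKM of the 10 members, per library, with libraries labelled DKO left of those labelled ApoE-/-. Bars give mean ± SD; the ratio to Itgb5 and the percentage separate the groups, whereas DKO 1 (0.72) overlaps ApoE 1 (0.82) in the ratio to Itgav.

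The regions before the first bases of Itgav and Itgb5 are shown because both chains form vitronectin receptors and differed in whether their groups separated. They were chosen after the values were seen, and come from RefSeq (GRCm38.p6), 250 bases before to 50 after the start RefSeq gives each gene, 5′ to 3′, with GC boxes (GGGCGG on either strand) in capitals. Lengths are 300 bases each, on the plus strand, at chr2:83724147-83724446 and chr16:33829415-33829714. The start used for the Itgav window lies inside the span given for the gene above, which is also from RefSeq.
Itgav: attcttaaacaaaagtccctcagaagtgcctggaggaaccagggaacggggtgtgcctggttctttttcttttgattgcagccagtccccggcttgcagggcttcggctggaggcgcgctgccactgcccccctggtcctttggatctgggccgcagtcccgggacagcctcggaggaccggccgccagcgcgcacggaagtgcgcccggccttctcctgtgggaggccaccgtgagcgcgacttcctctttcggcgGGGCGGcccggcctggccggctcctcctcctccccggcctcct
Itgb5: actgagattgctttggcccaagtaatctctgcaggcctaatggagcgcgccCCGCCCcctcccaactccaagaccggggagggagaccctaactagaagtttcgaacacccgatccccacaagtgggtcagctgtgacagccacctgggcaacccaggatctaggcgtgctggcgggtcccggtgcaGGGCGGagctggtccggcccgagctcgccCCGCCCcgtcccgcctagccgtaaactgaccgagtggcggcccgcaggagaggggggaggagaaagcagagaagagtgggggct
Itgav holds 1 GC box and Itgb5 holds 3, and their GC content is 67.3% and 65.7%, against a median of 52.7% over 27025 promoters of genes. Of the 10 members, 9 had a promoter entry (all but Itgb3), and 6 of these 9 held a GC box, as did 35.9% of all promoters. The element that NR4A receptors bind as monomers, AAAGGTCA on either strand, was in 0 of the 9 windows and in 1.46% of all promoters. The TEAD motif GGAATG was in that of Itgb1 only (14.6% of all), and the AP-1 motif TGANTCA in that of Itga9 only (7.93% of all). The Itga9 window, at chr9:118711442-118711741, lies inside the gene, whose RefSeq span is 118606709 to 118901003. It is thus not upstream of the first annotated base. A match or its absence describes the letters of these windows and nothing more.

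Itgb1, the common beta 1 chain, was read at 1454, 1497, 1442 and 1773 CPM in DKO 1 to DKO 4, against 1490.2, 1202 and 1178 CPM in ApoE 1 to ApoE 3. ApoE 1 lay within the range of the libraries labelled DKO, and the other 2 lay below it. On the FPKM scale the groups did not overlap, at 335 to 399 FPKM in the libraries labelled DKO and 259.8 to 312 FPKM in those labelled ApoE-/-. Mean CPM was 1541 ± 156 (SD, n = 4) in the libraries labelled DKO and 1290.2 ± 174 (SD, n = 3) in those labelled ApoE-/-, a log2 ratio of 0.26 ± 0.14 that was 0.05 with only ApoE 1 in its group. Itgb1 had 2.37 ± 0.23 times the summed FPKM of its 6 alpha partners among the members in the libraries labelled DKO and 2.21 ± 0.29 times in those labelled ApoE-/-, with overlap. Itgb1 also pairs with alpha chains outside that sum. Of these, Itga8 was at 131 ± 57.1 FPKM (SD, n = 4) in the libraries labelled DKO and 124 ± 7.11 FPKM (SD, n = 3) in those labelled ApoE-/-. The ratio to all alpha partners is therefore lower than that given.

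The collagen-binding alpha chains differed from each other. Itga1, which prefers collagen IV, was the steadiest of them, at 92.1, 108, 86.1 and 109 CPM in DKO 1 to DKO 4 and 83.2, 96.9 and 93.1 CPM in ApoE 1 to ApoE 3 (log2 ratio 0.12 ± 0.11). Itga11, the fibroblast receptor for fibrillar collagen, was read at 136, 98.7, 70.8 and 27.2 CPM in DKO 1 to DKO 4, against 53.0, 33.9 and 43.5 CPM in ApoE 1 to ApoE 3. The libraries labelled DKO thus held both its highest and its lowest level, 5.01-fold apart, while those labelled ApoE-/- were within 1.56-fold. Its log2 ratio of 0.94 ± 0.48 became 0.61 without DKO 1 and 1.23 without DKO 4. Itga2, the collagen receptor of platelets and epithelia, was low throughout, at 15.2, 15.5, 10.8 and 4.24 CPM in DKO 1 to DKO 4 and 3.02, 8.23 and 6.55 CPM in ApoE 1 to ApoE 3. For Itga2, DKO 4 fell among the libraries labelled ApoE-/- while the other 3 lay above all of them (log2 ratio 0.95 ± 0.51, but 0.63 without ApoE 1, 1.26 without ApoE 2 and 1.92 with only ApoE 1 in its group). Itga1 and Itga2 are neighbours on chromosome 13, 26 kb apart. Exons of Gm49395, a protein-coding gene of the same strand, share 685 of the 18599 annotated exon bases of Itga1.

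Among the fibronectin and VCAM-1 receptor chains, Itga5, the fibronectin receptor, and Itga9, a tenascin-C and VCAM-1 receptor of smooth muscle and lymphatic endothelium, had group means that differed by less than the SD of the libraries labelled DKO. Itga5 was read at 404, 566, 572 and 599 CPM in DKO 1 to DKO 4 and at 718, 412 and 508 CPM in ApoE 1 to ApoE 3 (log2 ratio -0.03 ± 0.22, and -0.43 with only ApoE 1 in its group). Its highest library was ApoE 1 and its lowest DKO 1. Itga9 was read at 249, 377, 416 and 713 CPM in DKO 1 to DKO 4, and at 412, 310.4 and 397 CPM in ApoE 1 to ApoE 3. DKO 4 was far above the rest, and the log2 ratio of 0.23 ± 0.33 was -0.10 without it. Itga4, the VCAM-1 receptor chain best known from leukocytes, was at 44.7, 37.3, 56.5 and 26.7 CPM in DKO 1 to DKO 4, against 23.9, 37.6 and 19.9 CPM in ApoE 1 to ApoE 3. ApoE 2 lay among the libraries labelled DKO, and the log2 ratio was 0.60 ± 0.30 (0.42 without DKO 3 and 0.91 without ApoE 2). T and NK cell markers (11 of 13 found, of which 10 passed the filter) summed to 49.6 to 133 CPM in the libraries labelled DKO and 31.8 to 70.6 CPM in those labelled ApoE-/-. Like Itga4 they were highest in DKO 3, as were the summed B cell markers (99.4 CPM) and macrophage markers (6070 CPM). Within the other group, these lists were highest in ApoE 2, as was Itga4. The part of any of these cells in the level of Itga4 was not tested. Exons of Cerkl on the opposite strand cover 8.04% of the exon bases of Itga4.

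**Figure D3:**
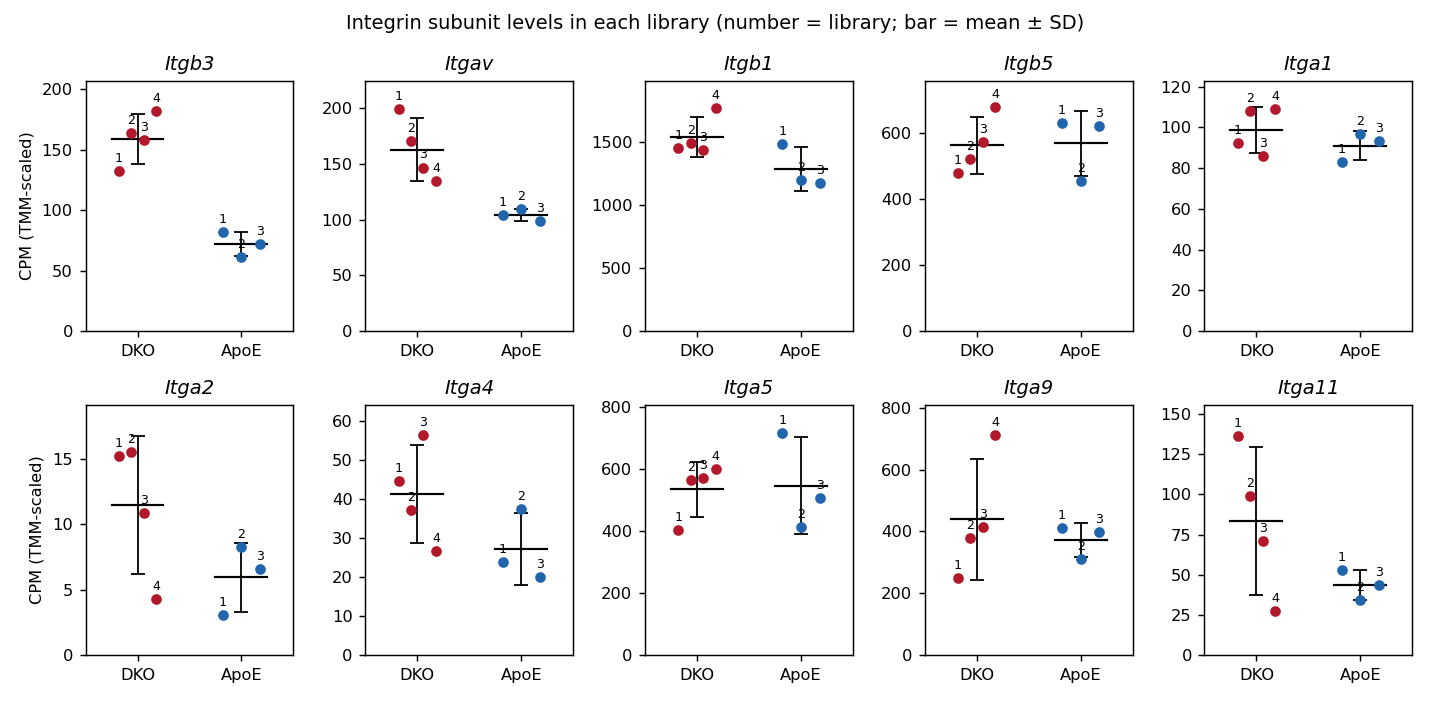
CPM of each of the 10 members in the 4 libraries labelled DKO (left) and the 3 labelled ApoE-/- (right) on axes that start at 0, with mean ± SD. Itgb3 and Itgav separate the groups, and Itga11, Itga2 and Itga9 spread most among the libraries labelled DKO by highest over lowest level, DKO 4 being highest for Itga9 (713 CPM) and lowest for Itga11 (27.2 CPM).

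Over the 10 members, 8 fitted log2 ratios were above 0 (9 with RLE scaling, 10 on FPKM, and 7 without DKO 4 or with the replicate number as a block), as were 47.4% of those of all genes, and the median was 0.43 beside -0.02 for all 14609 genes. In edgeR's quasi-likelihood test with Benjamini-Hochberg adjustment over all genes, 0 of the 10 passed an adjusted p of 0.05, beside 0.0274% of all genes, all of those lower in the libraries labelled DKO. At an unadjusted p under 0.05, 2 members (Itgb3 and Itgav) were higher and 0 lower, beside 8% and 11.8% of all genes. DESeq2 called the same 2 higher and 0 lower, beside 3.16% and 4.66% of all genes (7.82% in both directions). On log2 FPKM with a minimum mean of 1, limma called Itgb3 alone at either pseudocount, beside 0.00831% of 12032 genes higher, 0.0332% lower and 0.0416% in both directions. Groups did not overlap in CPM for 2 of the 10, higher in the libraries labelled DKO, and for 0 in the lower direction, beside 7.08% and 9.24% of all genes. Since the members were chosen with these values known, no weight rests on these counts.

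The 17 other integrin genes, of which 15 passed the filter, give the setting. With edgeR, 0 of the 15 passed in either direction (0.0274% of all genes). At an unadjusted p under 0.05 there were 0 (8% of all genes higher and 11.8% lower). DESeq2 called 0 (3.16% and 4.66% of all genes), and no gene of the 15 separated the groups (7.08% and 9.24% of all genes). The median log2 ratio of the 15 was 0.22, with 11 above 0 (47.4% of all genes). Itga8, the smooth muscle partner of Itgb1, was at 691 to 1945 CPM in the libraries labelled DKO and 1031 to 1231 CPM in those labelled ApoE-/- (log2 ratio 0.04 ± 0.33, edgeR adjusted p = 0.961). The leukocyte beta 2 chain Itgb2 was at 106 to 214 CPM in the libraries labelled DKO and 97.7 to 145 CPM in those labelled ApoE-/- (log2 ratio 0.45 ± 0.25, adjusted p = 0.359). Its partners Itgal, of lymphocytes (log2 ratio 0.55 ± 0.30, edgeR adjusted p = 0.342), and Itgam, of myeloid cells (log2 ratio 0.52 ± 0.31, adjusted p = 0.384), had ratios of similar size. Itga2b, the platelet partner of Itgb3, was at 6.56, 4.41, 7.10 and 5.22 CPM in DKO 1 to DKO 4 and at 5.60, 6.57 and 7.04 CPM in ApoE 1 to ApoE 3, with full overlap (log2 ratio -0.14 ± 0.22, adjusted p = 0.769). It was the only one of 9 platelet and megakaryocyte markers tested whose log2 ratio was below 0.

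**Figure D4:**
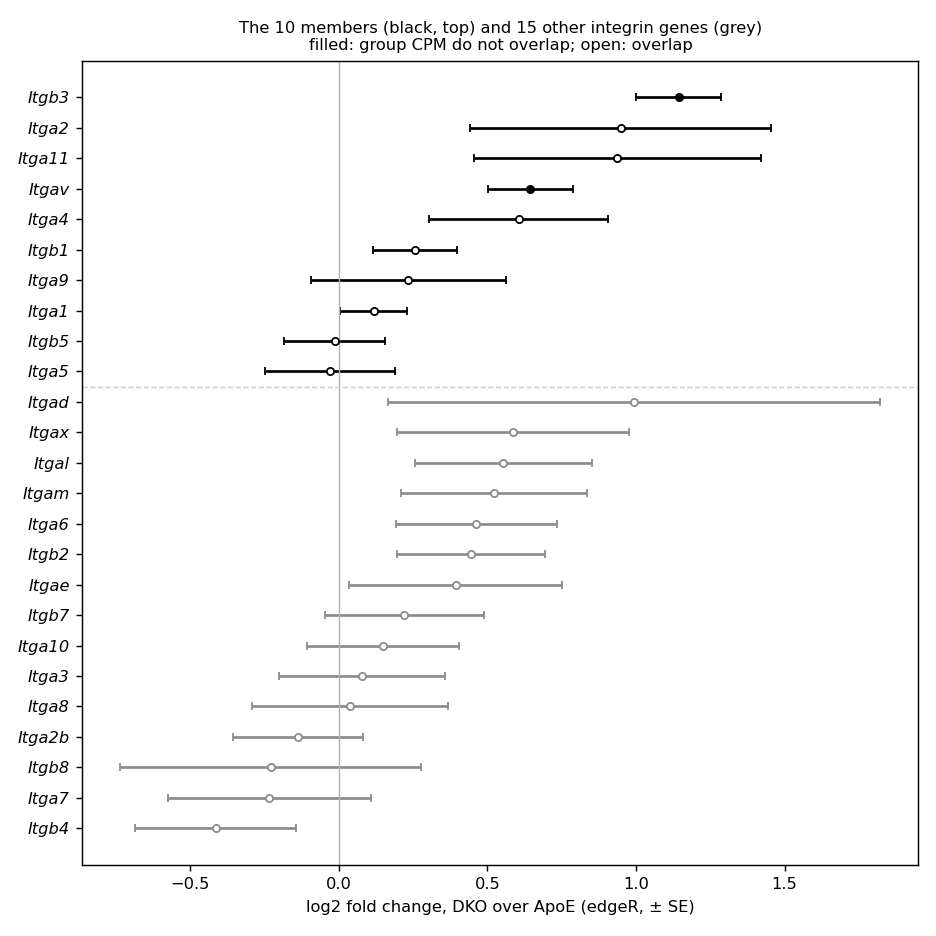
Log2 ratio, DKO over ApoE, with its standard error, for the 10 members (black) and the 15 other integrin genes tested (grey); filled points mark genes whose CPM do not overlap between the groups. Of these 25 genes only Itgb3 (1.14) and Itgav (0.64) are filled.

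Markers of cells that carry these integrins were read in the same libraries. Of 13 platelet and megakaryocyte markers 9 passed the filter. The summed level of all 13 was 45.6 to 71.2 CPM in the libraries labelled DKO and 51.4 to 55.4 CPM in those labelled ApoE-/-. The largest part of that sum was Pf4, platelet factor 4, at 23.0 to 36.0 CPM in the libraries labelled DKO and 25.5 to 33.3 CPM in those labelled ApoE-/-. Of the 9, 8 had a log2 ratio above 0 (47.4% of all genes), the median was 0.13, and edgeR called 0 (0.0274% of all genes). Only 1 (Treml1, named after its values were seen) did not overlap, being higher in the libraries labelled DKO, as were 7.08% of all genes. Treml1 was near the floor, with 10 to 34 counts in the libraries labelled DKO and 4 to 10 in those labelled ApoE-/-. The mean of the 9 was 1.67, 1.55, 1.95 and 1.31 log2 CPM in DKO 1 to DKO 4, against 1.24, 1.36 and 1.24 in ApoE 1 to ApoE 3. DKO 1 to DKO 3 thus lay above all libraries labelled ApoE-/- and DKO 4 among them. The part of platelet RNA in the level of Itgb3, which was highest in DKO 4, was not tested. The platelet receptor gene Gp9 had 1 to 5 counts in the libraries labelled DKO and 0 to 2 in those labelled ApoE-/-. Of 8 osteoclast markers 6 passed, and all 8 summed to 295 to 504 CPM in the libraries labelled DKO and 395 to 417 CPM in those labelled ApoE-/-. Calcr, the calcitonin receptor, had 0 counts in all 7 libraries. The endothelial list (12 of 12 markers) summed to 1368 to 1776 CPM in the libraries labelled DKO and 1361 to 1707 CPM in those labelled ApoE-/-. The macrophage list (12 of 12) summed to 3215 to 6070.5 CPM in the libraries labelled DKO and 2882 to 4206 CPM in those labelled ApoE-/-, and like the contractile list both overlapped. The summed fibroblast list (12 of 12) did not overlap, with 5069 to 6136 CPM in the libraries labelled DKO and 7015 to 8153 CPM in those labelled ApoE-/-. Its markers were split, with 9 log2 ratios below 0 and 3 above. Of the 12, 6 separated the groups, all lower in the libraries labelled DKO (9.24% of all genes). Adipocyte lists did not overlap either: white markers (14 of 14) had 5641 to 8676 CPM in the libraries labelled DKO and 11600.3 to 16568 CPM in those labelled ApoE-/-, and brown markers (8 of 8) had 317 to 695 CPM in the libraries labelled DKO and 791 to 2266 CPM in those labelled ApoE-/-. In bulk tissue, fewer cells of a type and less RNA per cell cannot be told apart, and the part of these shifts in the levels of Itgb3 and Itgav was not tested.

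Within the 4 libraries labelled DKO, some members had the order of the contractile genes, some its reverse and the rest neither. The mean level of 14 contractile genes, such as Acta2 and Myh11, was 8.13, 8.70, 8.86 and 9.79 log2 CPM in DKO 1 to DKO 4, against 9.49, 9.09 and 9.48 in ApoE 1 to ApoE 3. Itga9, Itga5 and Itgb5 (3 of 10) had the same order over these 4 libraries as the contractile list. That order was also found for 9.39% of all genes and 2 of the 15 other integrin genes. Itga11 and Itgav (2 of 10) had the reverse order, as did 7.82% of all genes and 1 of the 15 other integrin genes. Itgb3 was highest in DKO 4 and lowest in DKO 1 like the contractile list, but DKO 2 and DKO 3 changed places. Itgb3 was above all 3 libraries labelled ApoE-/- in each of these 4 libraries. The macrophage list was at 7.91, 7.58, 7.97 and 7.30 log2 CPM in DKO 1 to DKO 4, lowest in DKO 4, where Itgav, Itga2, Itga4 and Itga11 were also the lowest of these 4 libraries. The mean levels of the T and NK cell, B cell, neutrophil, osteoclast and platelet lists were lowest in DKO 4 too, so this low point is not particular to macrophage markers. The part of RNA from smooth muscle, macrophages or these other cells in the levels of the members was not tested.

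**Figure D5:**
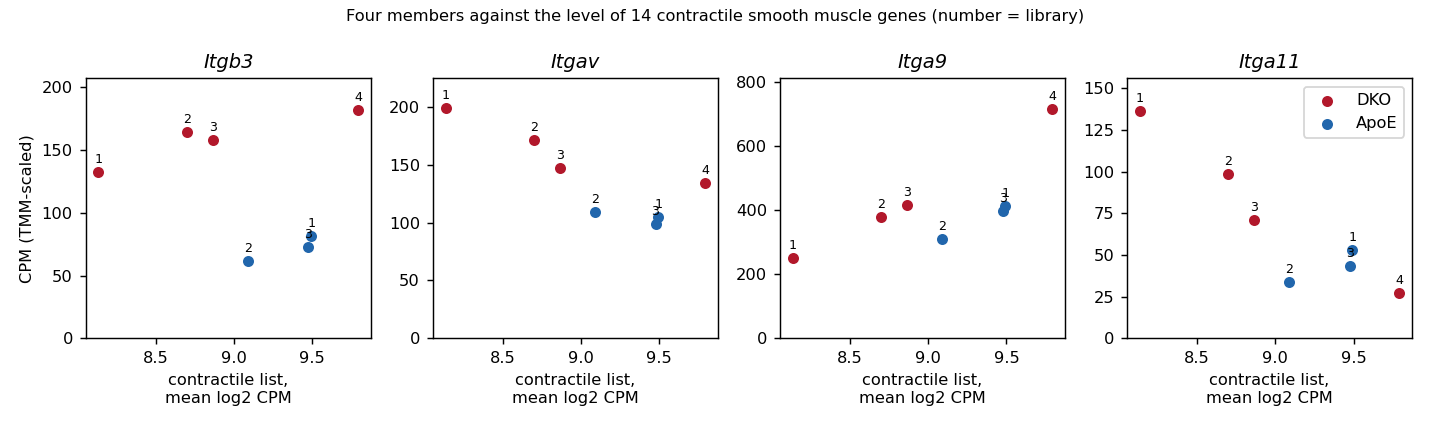
CPM of Itgb3, Itgav, Itga9 and Itga11 (vertical, from 0) against the mean log2 CPM of 14 contractile smooth muscle genes (horizontal) in each library, DKO and ApoE by colour. Among the libraries labelled DKO, Itga9 is highest and Itgav and Itga11 lowest in DKO 4, and Itgb3 is above the libraries labelled ApoE-/- in all 4.

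The matrix ligands of these receptors were taken from lists of RGD proteins and provisional matrix, collagens and laminins, and counter-receptors. Of 39 measured, 0 passed edgeR's test over all genes, 8 were higher and 2 lower at an unadjusted p under 0.05 (8% and 11.8% of all genes), and DESeq2 called 5 higher and 2 lower (3.16% and 4.66% of all genes). The medians were 0.24 for the 16 RGD and provisional matrix genes, 0.25 for the 18 collagens and laminins and 0.16 for the 5 counter-receptors, beside -0.02 for all genes. Fn1, fibronectin, the ligand of alpha 5 beta 1 and alpha v beta 3, was at 13642, 13846, 11399 and 16413 CPM in DKO 1 to DKO 4, against 11157, 10274 and 9174 CPM in ApoE 1 to ApoE 3. The groups did not overlap, though the lowest library labelled DKO and the highest labelled ApoE-/- were close (log2 ratio 0.44 ± 0.19, edgeR adjusted p = 0.263). Thbs1, thrombospondin 1, another alpha v beta 3 ligand, was at 3230.3, 2581, 1281 and 966 CPM in DKO 1 to DKO 4, against 852, 630 and 761 CPM in ApoE 1 to ApoE 3 (log2 ratio 1.43 ± 0.43, adjusted p = 0.166). Like Itgav it was highest in DKO 1 and nearest to the other group in DKO 4.

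Vitronectin and osteopontin, the classical ligands of alpha v beta 3, did not separate. Vtn was low, at 8.43 to 15.3 CPM in the libraries labelled DKO and 13.2 to 16.7 CPM in those labelled ApoE-/- (log2 ratio -0.38 ± 0.24, edgeR adjusted p = 0.395). Spp1, osteopontin, was at 5111, 1795, 2796 and 599 CPM in DKO 1 to DKO 4 and at 2185, 1436 and 579 CPM in ApoE 1 to ApoE 3 (log2 ratio 0.88 ± 0.72, adjusted p = 0.520). Tgfb1, whose latent form alpha v integrins can release, was at 109 to 179 CPM in the libraries labelled DKO and 97.1 to 114 CPM in those labelled ApoE-/- (log2 ratio 0.48 ± 0.17, adjusted p = 0.196). Tnc, the tenascin-C ligand of alpha 9 and alpha v, had a log2 ratio of 0.25 ± 0.15 (adjusted p = 0.375).

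Of the collagen and laminin genes, Col4a1, a basement membrane collagen bound by alpha 1 beta 1, was at 2753 to 3248 CPM in the libraries labelled DKO and 1718 to 2430.3 CPM in those labelled ApoE-/-, without overlap (log2 ratio 0.54 ± 0.16, edgeR adjusted p = 0.165). Lama2, the laminin alpha 2 chain, went the other way without overlap, at 42.6 to 69.7 CPM in the libraries labelled DKO and 87.0 to 135 CPM in those labelled ApoE-/- (log2 ratio -0.82 ± 0.22, adjusted p = 0.158). Col1a1, a fibrillar collagen, overlapped (log2 ratio 0.32 ± 0.29, adjusted p = 0.577). Among counter-receptors, Vcam1, bound by alpha 4 beta 1, was at 516, 385, 489 and 318 CPM in DKO 1 to DKO 4, against 314, 316 and 298 CPM in ApoE 1 to ApoE 3 (log2 ratio 0.47 ± 0.18, adjusted p = 0.211). DKO 4 stood just above the 3 libraries labelled ApoE-/-. Emilin1, an elastic fibre protein bound by alpha 4 and alpha 9, was at 310.3 to 386 CPM in the libraries labelled DKO and 253 to 292 CPM in those labelled ApoE-/- (log2 ratio 0.38 ± 0.11, adjusted p = 0.161). Jam2, a junctional alpha 4 beta 1 ligand, was at 67.4 to 90.5 CPM in the libraries labelled DKO and 109.5 to 136 CPM in those labelled ApoE-/- (log2 ratio -0.53 ± 0.13, adjusted p = 0.155).

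Proteins that bind integrin tails and build focal adhesions had ratios centred near 0 as a list. Of 34 measured, 0 passed edgeR's test, 4 were higher and 3 lower at an unadjusted p under 0.05 (8% and 11.8% of all genes), DESeq2 called 1 higher and 0 lower (3.16% and 4.66% of all genes), and the median log2 ratio was 0.06. The activators Tln1, talin 1 (log2 ratio 0.13 ± 0.14, edgeR adjusted p = 0.635), and Fermt2, kindlin 2 (log2 ratio 0.12 ± 0.18, adjusted p = 0.756), overlapped between the groups. Tns3, tensin 3, which binds beta chain tails, was at 243, 194, 190.2 and 131 CPM in DKO 1 to DKO 4, against 127, 122 and 96.0 CPM in ApoE 1 to ApoE 3, without overlap (log2 ratio 0.72 ± 0.21, adjusted p = 0.161). Itgb1bp1, the beta 1 tail binder ICAP-1, which holds beta 1 integrin back from activation, was at 28.3 to 32.4 CPM in the libraries labelled DKO and 33.5 to 40.6 CPM in those labelled ApoE-/-, also without overlap (log2 ratio -0.29 ± 0.10, adjusted p = 0.183).

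Among 13025 other genes with a mean of at least 1 log2 CPM, the 5 most like Itgb3 across the 7 libraries, by Pearson's r of log2 CPM, were Dars (r = 0.98, Spearman's rho = 0.96), Ssh1 (0.98 and 0.93), Msn (0.98 and 0.96), 9930012K11Rik (0.97 and 0.82) and Ereg (0.96 and 0.86). Dars encodes the aspartyl-tRNA synthetase, Ssh1 a cofilin phosphatase, Msn the membrane-to-actin linker moesin and Ereg the growth factor epiregulin. Both groups enter these values, so they carry the difference between the groups as well as the spread within them, and n is 7 libraries that share depth and tissue makeup. Msn was at 896 to 1060 CPM in the libraries labelled DKO and 728 to 828 CPM in those labelled ApoE-/-. Its log2 ratio of 0.40 ± 0.11, like those of Dars (0.25), Ssh1 (0.23), 9930012K11Rik (0.97) and Ereg (0.58), was smaller than that of Itgb3.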

How the data were processed

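Gene counts and FPKM values of 7 abdominal aorta libraries, made with a stranded mRNA kit per the labels' protocols, were used. The submitters' processing notes name Trimmomatic, HISAT2, HTSeq, Cufflinks, DESeq and the build GRCm38.p6. The deposited counts are whole numbers that were not normalised, and the deposited FPKM values were scaled by the authors for gene length and depth. Which annotation, filters and strand setting the authors used is not given in the sources used here. Columns were matched to samples by genotype and number.

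Counts were filtered with edgeR's filterByExpr (minimum count 10), which left 14609 of 21878 genes, normalised by TMM, then compared (4 DKO, 3 ApoE libraries) in edgeR's quasi-likelihood framework, with p adjusted by Benjamini-Hochberg over all genes (threshold 0.05). The standard error of a log2 ratio is its size divided by the root of the F statistic. Mean list levels use log2 CPM with a prior count of 2. Software was edgeR 4.0.16 under R 4.3.3, with DESeq2 1.42.0 and limma 3.58.1 for alternatives. The lowest chi-square per gene between libraries was 35.1, so none repeated another.

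Members and gene lists were chosen with earlier results of these data known. Named genes were the 10 members, a set of integrin-system genes given by name, the 2 of each list with the smallest p where none passed, and the 5 genes most like Itgb3. Markers, Cerkl, Gm13684 and Gm49395 were named where a value touched on them. Totals of 19295287 to 21727192 counts make counting error small beside the spread between libraries for all but the lowest genes.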

Additional observations from a re-analysis of the deposited data

Results flagged for a closer look

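In the 4 libraries labelled DKO, each member's CPM and FPKM were searched for a library far from the others (Dixon's gap over range, above 0.829), 20 searches in all, of which chance flags about 1 in 20. Itgb1 in DKO 4, at 1773 CPM, lay above DKO 1 to DKO 3 with a gap of 0.833 of the range. Itga5 in DKO 1, at 61.3 FPKM, lay below DKO 2 to DKO 4 with a gap of 0.927 of the range. Both measures overlapped between the groups: ApoE 1 to ApoE 3 had 1178 to 1490.2 CPM for Itgb1 and 59.7 to 97.4 FPKM for Itga5.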

How the results depend on the processing

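Itgb3, Itgav, Itgb1, Itga1, Itga2, Itga4 and Itga11 stayed above 0 under all 16 alternatives, among which the log2 ratio of Itgb3 ran from 0.96 to 1.25 and that of Itgav from 0.55 to 0.73. Itga9 kept its sign in 14 of 16, Itga5 in 11 and Itgb5 in 7. The median of the 10 members ran from 0.35 to 0.50 with single libraries left out, and from 0.39 to 0.46 otherwise. Members called numbered 2 with DESeq2 (Itgb3 and Itgav, whose choice used the same values) and 1 with limma on FPKM (minimum mean 1) at a pseudocount of 1 and 1 at a pseudocount of 0.1, against 0 with the edgeR test reported and 0 with each library left out. Over all genes, calls numbered 1142 with DESeq2, against 4 with the edgeR test reported, 0 with limma on unfiltered FPKM, and 0 without ApoE 2 and ApoE 3 together, a setting added after the data were seen, and 0 to 6 with single libraries left out (0 without ApoE 1, ApoE 3, DKO 3 or DKO 4). DESeq2 also called 7 ligands and 1 focal adhesion gene, against 0 and 0 with edgeR. The cause of these differences was not tested. With the replicate number as a block, 0 genes were called in all and 0 members, and Itgb3 had a log2 ratio of 1.08. The labels link same-numbered libraries by nothing but the number, and whether they shared a batch is not stated. Their deviations from group means correlated at -0.39, 0.70 and 0.0036. Ratios without a library rest on 3 against 3 or 4 against 2, and with ApoE 1 alone its spread is assumed to be that of the other group.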
